A study of Mus musculus with 18 samples.

Results

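The 24 h fasting response of mouse hepatocytes was compared between the 2 sides of the liver lobule. The comparison used 12 of the 18 RNA sequencing libraries of the study, in 4 groups of 3: pericentral and periportal hepatocytes of fed mice, and the same pair after 24 h without food. For each gene, the change from fed to 24 h in periportal cells minus the change in pericentral cells is called the zone difference here. It is on the log2 scale, so that a value of -1 means that the periportal change was lower than the pericentral change by a factor of 2. Of 28030 genes in the table, 12477 had enough counts to be tested, and every one of these was included whatever its function.

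All groups were liver hepatocytes of male C57BL/6J mice of WT genotype, aged 12 weeks, on Normal Chow lab diet #5053. All mice had been trained for 3 days with 16 h of fasting and 8 h of feeding a day. The fed mice were killed at clock hour 13 after 4 h with chow and water holding 20% sucrose. For the fasted mice, chow and sucrose were withdrawn at that hour and they were killed 24 h later, so the time of day was the same and the removal of sucrose is part of the contrast. The zones were separated by perfusing digitonin, a detergent, into the liver from the portal or the central side, which opens hepatocytes near the point of entry. Each group is therefore an enriched and not a pure population. The other 6 libraries, taken after 8 h of fasting and at clock hour 21, entered the fit to estimate the spread. No label says whether libraries with the same replicate number came from 1 mouse or 1 day, so the p-values measure only the spread between these samples, which may be technical. In bulk samples of this kind, fewer cells of a type and less RNA per cell cannot be told apart.

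Blood enters the lobule beside the portal vein and leaves through the central vein, and hepatocytes along the way divide their work. Periportal cells are known for gluconeogenesis, urea production and the breakdown of histidine and serine. Pericentral cells are known for glutamine synthesis and cytochrome P450 enzymes, a programme kept up by Wnt signals that stabilise beta-catenin. In a fast, glucagon and glucocorticoids raise glucose output, fatty acids become fuel, and the SREBP factors that drive fatty acid and cholesterol synthesis become less active. These points are background.

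The libraries carried the labelled cell type and zones. Albumin (Alb), a plasma protein made by hepatocytes, lay between 48970 and 159600 CPM. These are counts relative to the library's total after TMM scaling, so that libraries of unequal depth can be compared. Ttr, which carries thyroid hormone, lay between 3703 and 5226 CPM. Cyp2e1, a pericentral cytochrome P450, was at 9110 to 16100 CPM in the pericentral and 325 to 1830 CPM in the periportal libraries compared. Total estimated counts ranged from 18359911 to 26384358 a library. A pair of libraries stood apart from their groups. Pericentral 24 h replicate 2 had 111 CPM of Glul, the pericentral glutamine synthetase, where its partners had 928 and 707, and 793 CPM of Cyp2f2, a periportal cytochrome P450, where they had 345 and 322. Periportal fed replicate 3 had 2200 CPM of Pck1, the fasting-induced enzyme of gluconeogenesis, where its partners had 593 and 927, and 452 CPM of Fasn, fatty acid synthase, where they had 1460 and 1530. Values without these libraries are given beside many of the results. Where none is given, the result may still have moved without them. Markers of other cell types were not even between the groups. Over 12 markers of sinusoidal endothelial cells the summed level was 4.56 to 6.74 CPM in pericentral fed, 5.78 to 13.2 in pericentral 24 h, 16.3 to 17.9 in periportal fed and 5.70 to 25.2 in periportal 24 h libraries.

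Upstream sequence is shown here for 6 genes that the results turn on, to show which letters of known motifs lie in front of them. Ctnnbip1 passed the test for a zone difference, Hal and Pck1 had lower periportal than pericentral changes, and Idi1, Hsd17b7 and Hmgcs1 belong to the cholesterol synthesis genes, which had higher ones. Each line gives 120 bases of the coding strand from RefSeq (GRCm38.p6), with motif matches in capitals.
Ctnnbip1: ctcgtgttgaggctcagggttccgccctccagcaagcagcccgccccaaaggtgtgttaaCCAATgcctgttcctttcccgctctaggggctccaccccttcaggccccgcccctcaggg
Hal: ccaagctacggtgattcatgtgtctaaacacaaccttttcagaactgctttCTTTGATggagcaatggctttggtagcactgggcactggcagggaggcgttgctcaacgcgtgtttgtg
Pck1: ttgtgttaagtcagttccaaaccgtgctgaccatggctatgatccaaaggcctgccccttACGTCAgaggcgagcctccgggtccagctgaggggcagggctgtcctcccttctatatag
Idi1: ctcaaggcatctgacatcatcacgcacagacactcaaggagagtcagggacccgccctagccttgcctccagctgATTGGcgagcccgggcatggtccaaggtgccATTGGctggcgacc
Hsd17b7: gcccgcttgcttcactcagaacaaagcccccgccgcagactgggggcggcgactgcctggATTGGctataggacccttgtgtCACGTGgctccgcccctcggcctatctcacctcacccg
Hmgcs1: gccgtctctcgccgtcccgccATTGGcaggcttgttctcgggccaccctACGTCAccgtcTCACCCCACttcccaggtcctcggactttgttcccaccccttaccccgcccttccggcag
The windows are chr4:149517996-149518115 (plus strand, bases 245 to 126 before the annotated start), chr10:93488518-93488637 (plus, 250 to 131), chr2:173152922-173153041 (plus, 151 to 32), chr13:8885486-8885605 (plus, 120 to 1), chr1:169969311-169969430 (minus, 225 to 106) and chr13:119690154-119690273 (plus, 197 to 78). In Ctnnbip1 and, on the other strand (ATTGG), in Idi1, Hsd17b7 and Hmgcs1 the capitals mark a CCAAT box. In Hal they mark CTTTGAT, which TCF/LEF factors of the Wnt pathway can bind. In Pck1, and in the second match of Hmgcs1, they mark the core of the cAMP response element, TGACGT, on the other strand (ACGTCA). The E-box CACGTG stands in Hsd17b7 and the sterol regulatory element TCACNCCAC in Hmgcs1. A match is a description of letters and not a binding site.

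Most genes changed by a similar amount in the 2 zones, as far as the spread let that be seen. Within the pericentral libraries 2726 genes passed the test from fed to 24 h (21.8% of those tested), and within the periportal ones 2446 did (19.6%), by the quasi-likelihood test of edgeR at an adjusted p under 0.05. Of these, 1532 changed in the same direction in both zones, and for 1201 of them (78.4%) the 95% interval of the zone difference lay between -1 and 1. Passing both tests in the same direction favours a small zone difference, so this share is no support by itself. Among the 3636 genes that passed in either zone it was 68.1%. For those that passed in pericentral cells alone it was 59.4%, and in periportal cells alone 62.3%. Over all genes tested the interval lay within these bounds for 7671 (61.5%). The median standard error (SE) of the zone difference was 0.26, and its median over all genes was -0.01, with 6135 genes above 0 and 6342 below. The fed and 24 h libraries did not overlap for 38.7% of genes on the pericentral and 36.9% on the periportal side. Between the zones, 485 genes (3.89%) were higher in periportal and 515 (4.13%) in pericentral cells of fed mice, and at 24 h 520 genes (4.17%) passed the test, 212 higher in periportal (1.7%) and 308 in pericentral cells (2.47%).

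**Figure D1:**
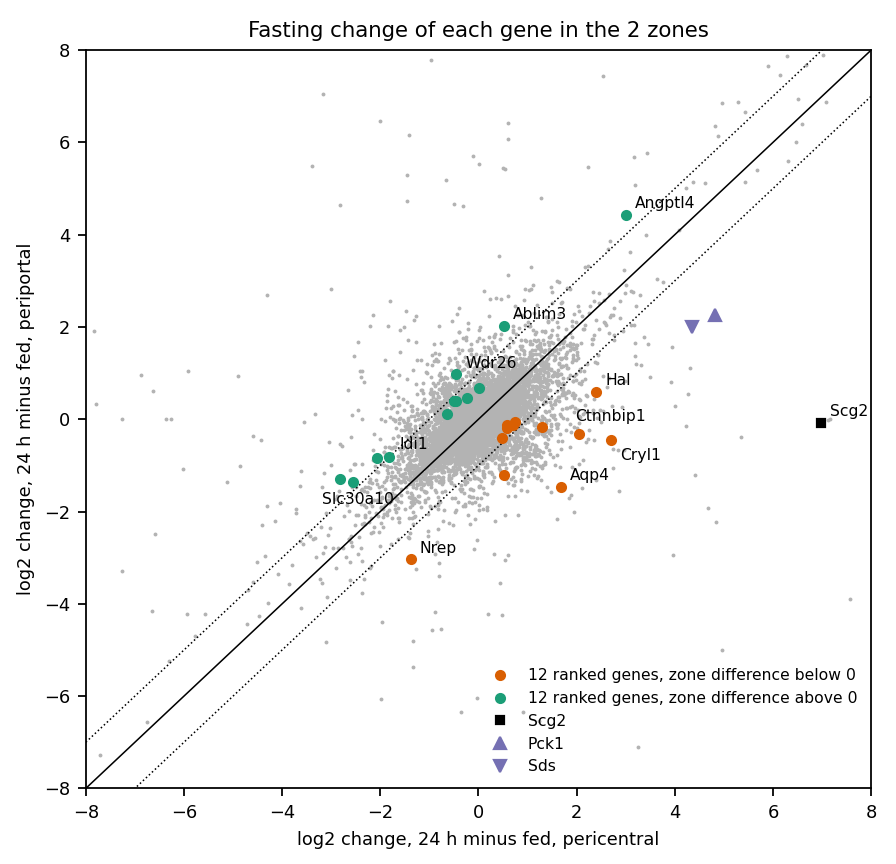
Log2 change from fed to 24 h in pericentral (x axis) and periportal (y axis) libraries, 1 grey point a gene, with 18 genes outside the axes. The solid line marks equal changes and the dotted lines a zone difference of 1 in size; most genes lie between the dotted lines, and Ctnnbip1, Cryl1 and Aqp4 lie below them.

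Only 2 genes passed the test for the zone difference, both below 0 (0.016% of genes tested). At an unadjusted p under 0.05 there were 962 (7.71%), 415 above 0 (3.33%) and 547 below (4.38%). DESeq2 called 38 genes (0.305%), 12 above 0 and 26 below, and limma-voom called 0, with 1009 at an unadjusted p under 0.05. The same edgeR test called 2 genes without pericentral 24 h replicate 2, 2 without periportal fed replicate 3 and 4 without both, of which Ctnnbip1 was the member common to all. The other genes called in those fits were listed at 0 in some libraries of the groups compared and had at most 4.16 CPM in any of them. They were Nfkbie and Grk1 and the identifier ENSMUSG00000096262, named here after their values were seen.

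Ctnnbip1 (ENSMUSG00000028988, chr4:149518236-149566437 on GRCm38, plus strand) was the stronger call. It encodes a small protein that binds beta-catenin and keeps it from its TCF partners, so it limits Wnt output. Its pericentral level was 1.28, 1.65 and 1.83 CPM in fed libraries and 4.92, 10.1 and 4.55 CPM at 24 h. Its periportal level was 32.8, 28.0 and 32.4 CPM in fed libraries and 27.6, 22.7 and 24.1 CPM at 24 h. Every pericentral 24 h library was above every fed one, with replicate 2 the highest, and every periportal 24 h library was below every fed one. The libraries are enriched and not pure, and the part of the mix of zones in these changes was not tested. The pericentral rise was 2.05 on the log2 scale (SE 0.25, edgeR adjusted p 3.47e-05), and the periportal change was -0.33 (SE 0.20, adjusted p 0.289). The zone difference came to -2.38 (SE 0.32, 95% interval -3.06 to -1.70, edgeR adjusted p 0.0159). The periportal excess went from 4.29 in fed to 1.92 in 24 h mice on the log2 scale. At 8 h, which was another time of day (clock hour 21), the means were 3.32 ± 0.178 CPM in pericentral and 26.1 ± 2.02 CPM in periportal libraries (SD, n = 3 each). They lay between the fed and 24 h means in each zone.

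The size of the Ctnnbip1 difference held without the libraries that stood apart. It was -1.91 without pericentral 24 h replicate 2, -2.34 without periportal fed replicate 3 and -1.88 without both (edgeR adjusted p 0.00266). The call itself was less stable. Leaving out single libraries gave values from -2.57 to -1.91, and the adjusted p rose past the threshold without 6 of the 18: pericentral fed replicate 1 (0.0832), 2 (0.0896) or 3 (0.0539), periportal fed replicate 1 (0.0664) and periportal 24 h replicates 2 (0.0913) or 3 (0.0834). It was also lost with the 4 groups alone (edgeR adjusted p 0.0716), with the replicate number as a block (0.0631) or as a block within each state (0.144), and by limma-voom (0.0688), also with quality weights.

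Scg2 (ENSMUSG00000050711, chr1:79434669-79440120, minus strand), which encodes secretogranin II, a protein of secretory granules in neuroendocrine cells, was the second call. It was listed at 0 in all 3 pericentral fed libraries and at 0.469, 0.699 and 0.791 CPM at 24 h. The periportal values were 0.454, 0.240 and 0.661 CPM in fed and 0.559, 0.333 and 0.414 CPM in 24 h libraries, which overlapped. A floor of 3 counts a library was set (0.114 to 0.126 CPM by the library's total before TMM scaling). Against this floor, the pericentral 24 h mean was at least 5.48-fold higher than the fed level. The edgeR adjusted p of the zone difference was 0.0473, and the call was lost when any of 15 of the 18 libraries was left out (adjusted p 0.0744 to 0.196) and when both libraries that stood apart were (0.218). The level did not exceed 0.791 CPM in any library.

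The 12 genes with the smallest p below 0, among those with a mean of at least 10 CPM in some group and an established symbol, included Ctnnbip1, Vps11, Hal, Cmip, Nrep, Steap2, Aqp4, Gypc, Cryl1, Dag1 and Uroc1. Of the 12, only Ctnnbip1 was called, and the edgeR adjusted p of the other 11 lay between 0.135 and 0.345. All 12 were called by DESeq2. In all 12 the fed level was higher in periportal cells. Counts of genes that rose or fell, here and below, are of those that passed the edgeR test within that zone. In pericentral cells 10 of the 12 rose (10.8% of all genes) and 1 fell (11.1%), and in periportal cells 0 rose (9.59%) and 3 fell (10%). The fed and 24 h libraries did not overlap for 10 of the 12 on the pericentral side (38.7% of all genes) and 8 on the periportal side (36.9%). Since they were ranked by the zone difference, these counts describe the choice and are no support for it. Pericentral 24 h replicate 2 was the highest library of its group in 8 of the 12. All 12 stayed below 0 without the libraries that stood apart, and 9 of the 12 were then smaller in size.

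Hal, the enzyme that removes ammonia from histidine, and Uroc1, the next enzyme on that path, were both among them. Hal (ENSMUSG00000020017, chr10:93488768-93519304) was at 46.8, 57.7 and 67.1 CPM in pericentral fed and 243, 466 and 196 CPM in pericentral 24 h libraries. In periportal libraries it was at 706, 552 and 812 CPM when fed and 1050, 1080 and 993 CPM at 24 h. The groups did not overlap in either zone, and the pericentral rise of 2.40 (SE 0.26, edgeR adjusted p 1.88e-05) passed the test while the periportal 0.59 (SE 0.25, adjusted p 0.111) did not. Hal had a zone difference of -1.80 (SE 0.36, edgeR adjusted p 0.288), or -1.21 without both libraries that stood apart. In CPM, however, the mean gained 244 on the pericentral and 351 on the periportal side, a difference of 107 with an SE of 115. The ratio and the amount added thus had opposite signs.

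Uroc1 (ENSMUSG00000034456) was at 195, 169 and 220 CPM in pericentral fed and 286, 406 and 284 CPM in pericentral 24 h libraries. Its periportal values were 701, 751 and 795 CPM when fed and 760, 659 and 726 CPM at 24 h, with overlap. The pericentral rise was 0.74 (SE 0.14, edgeR adjusted p 0.00125) and the zone difference -0.81 (SE 0.20, adjusted p 0.345), or -0.57 without both libraries that stood apart. Unlike Hal, Uroc1 gained CPM on the pericentral side alone, by 131, against a periportal mean that was lower by 33.8 CPM.

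Cryl1, an enzyme of the route from glucuronate to pentose sugars, and Aqp4, a water channel, were low in pericentral cells when fed. Cryl1 (ENSMUSG00000021947) was at 0.760, 0.512 and 2.02 CPM in pericentral fed and 4.81, 13.1 and 3.26 CPM in pericentral 24 h libraries, where replicate 2 was again the highest. The periportal values were 58.3, 42.8 and 41.8 CPM when fed and 39.3, 30.0 and 35.7 CPM at 24 h. Its zone difference came to -3.15 (SE 0.70, edgeR adjusted p 0.345), or -2.42 without both libraries. Aqp4 (ENSMUSG00000024411) was at 1.49, 1.14 and 0.934 CPM in pericentral fed and 1.68, 5.37 and 4.45 CPM at 24 h. On the periportal side it was at 48.1, 24.6 and 34.1 CPM when fed and 11.0, 12.6 and 15.0 CPM at 24 h. Aqp4 changed in opposite directions, a pericentral rise of 1.68 (edgeR adjusted p 0.0373) and a periportal fall of 1.47 on the log2 scale (adjusted p 0.027), and its zone difference of -3.14 (SE 0.68, adjusted p 0.326) was -2.82 without both libraries.

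Nrep was the 1 gene of the 12 that fell in both zones. It was at 36.4, 33.7 and 18.4 CPM in pericentral fed and 10.4, 12.5 and 11.1 CPM in pericentral 24 h libraries, and at 48.4, 34.9 and 48.6 against 7.88, 4.57 and 3.82 CPM on the periportal side. The groups did not overlap in either zone, and the zone difference was estimated at -1.65 (SE 0.37, edgeR adjusted p 0.326). The changes of Vps11, a part of the complexes that tether endosomes and lysosomes, were small but tight. It was at 20.5, 19.5 and 23.4 CPM in pericentral fed and 28.6, 31.3 and 34.7 CPM in pericentral 24 h libraries, and at 27.7, 27.0 and 27.1 against 25.3, 24.9 and 25.4 CPM on the periportal side. Its zone difference was -0.69 (SE 0.13, edgeR adjusted p 0.135), and -0.70 without both libraries that stood apart. Dag1, the matrix receptor dystroglycan, likewise kept its size, at -0.88 with and -0.95 without them.

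The 12 genes ranked above 0 included Prpf4b, Ablim3, Wdr26, Idi1, Angptl4, Neo1, Slc30a10, Tmie, Zfp276, Hsd17b7 and Hopx. None of the 12 was called, with edgeR adjusted p between 0.116 and 0.345, and DESeq2 called 6 of them. In pericentral cells 6 fell (11.1% of all genes) and 1 rose (10.8%), and in periportal cells 6 rose (9.59%) and 4 fell (10%). These genes too were ranked by the zone difference, so the counts are no support for it. All 12 stayed above 0 under every other setting tried, and 10 of the 12 were smaller in size without both libraries that stood apart.

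Prpf4b, a kinase that acts on the splicing machinery, was the top of this group. It was at 37.1, 38.4 and 31.5 CPM in pericentral fed and 27.4, 23.0 and 27.1 CPM in pericentral 24 h libraries. On the periportal side it was at 24.8, 24.9 and 22.3 CPM when fed and 30.8, 33.9 and 30.7 CPM at 24 h. The groups did not overlap in either zone, and the directions were opposite: a pericentral fall of 0.47 on the log2 scale (edgeR adjusted p 0.00521) and a periportal rise of 0.41 (adjusted p 0.0147). For Prpf4b the zone difference reached 0.87 (SE 0.15, edgeR adjusted p 0.116), or 0.74 without both libraries that stood apart.

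In all, 4 genes passed the edgeR test in both zones in opposite directions: Prpf4b, Aqp4 and, at under 6 CPM, Clic5 and Rp1. Clic5, a protein of the chloride intracellular channel family, was at 0.114 ± 0.0699 CPM in pericentral fed and 0.604 ± 0.401 CPM in pericentral 24 h libraries, against 4.68 ± 1.15 and 1.87 ± 0.584 CPM on the periportal side (SD, n = 3 each). Rp1, best known as a photoreceptor protein, was at 1.08 ± 0.265 and 2.43 ± 0.600 CPM against 2.54 ± 0.159 and 1.20 ± 0.270 CPM (SD, n = 3 each). None of the 4 was called for the zone difference itself (edgeR adjusted p 0.116 to 0.326).

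Wdr26, a subunit of the CTLH ubiquitin ligase, was higher in pericentral libraries when fed (edgeR adjusted p 0.0148). At 24 h its mean was higher in periportal libraries, which did not pass the test (edgeR adjusted p 0.221). It was at 53.8, 44.0 and 60.7 CPM in pericentral fed and 35.9, 38.8 and 41.4 CPM in pericentral 24 h libraries, and at 21.7, 35.9 and 27.1 against 56.1, 52.5 and 57.5 CPM on the periportal side. The 2 states did not overlap in either zone. The periportal rise of 0.97 (SE 0.21, edgeR adjusted p 0.00496) passed the test, the pericentral -0.45 did not (adjusted p 0.148), and the zone difference was 1.42 (SE 0.30, adjusted p 0.315). Ablim3, an actin-binding protein, had a periportal rise of 2.02 (SE 0.23, edgeR adjusted p 3.43e-05), from 6.23 ± 0.727 to 25.2 ± 5.13 CPM. The pericentral change was 0.52 (SE 0.22, edgeR adjusted p 0.0979), from 28.5 ± 3.93 to 41.0 ± 13.7 CPM (SD, n = 3 each).

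Angptl4, a secreted inhibitor of lipoprotein lipase and a target of PPAR receptors, rose in both zones, by 3.00 on the pericentral and 4.43 on the periportal side on the log2 scale. It was at 26.9, 25.3 and 32.6 CPM in pericentral fed and 278, 123 and 276 CPM in pericentral 24 h libraries, with replicate 2 the lowest. The periportal values were 12.5, 11.9 and 17.2 CPM when fed and 271, 260 and 364 CPM at 24 h. The 2 states did not overlap in either zone, and the zone difference was estimated at 1.43 (SE 0.37, edgeR adjusted p 0.345), 1.13 without pericentral 24 h replicate 2 and 1.32 without both libraries. Slc30a10, a manganese exporter, fell by 2.56 on the log2 scale in pericentral and by 1.36 in periportal cells, and its zone difference of 1.20 (SE 0.32) went with CPM changes of -42.5 on the pericentral and -53.3 on the periportal side.

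**Figure D2:**
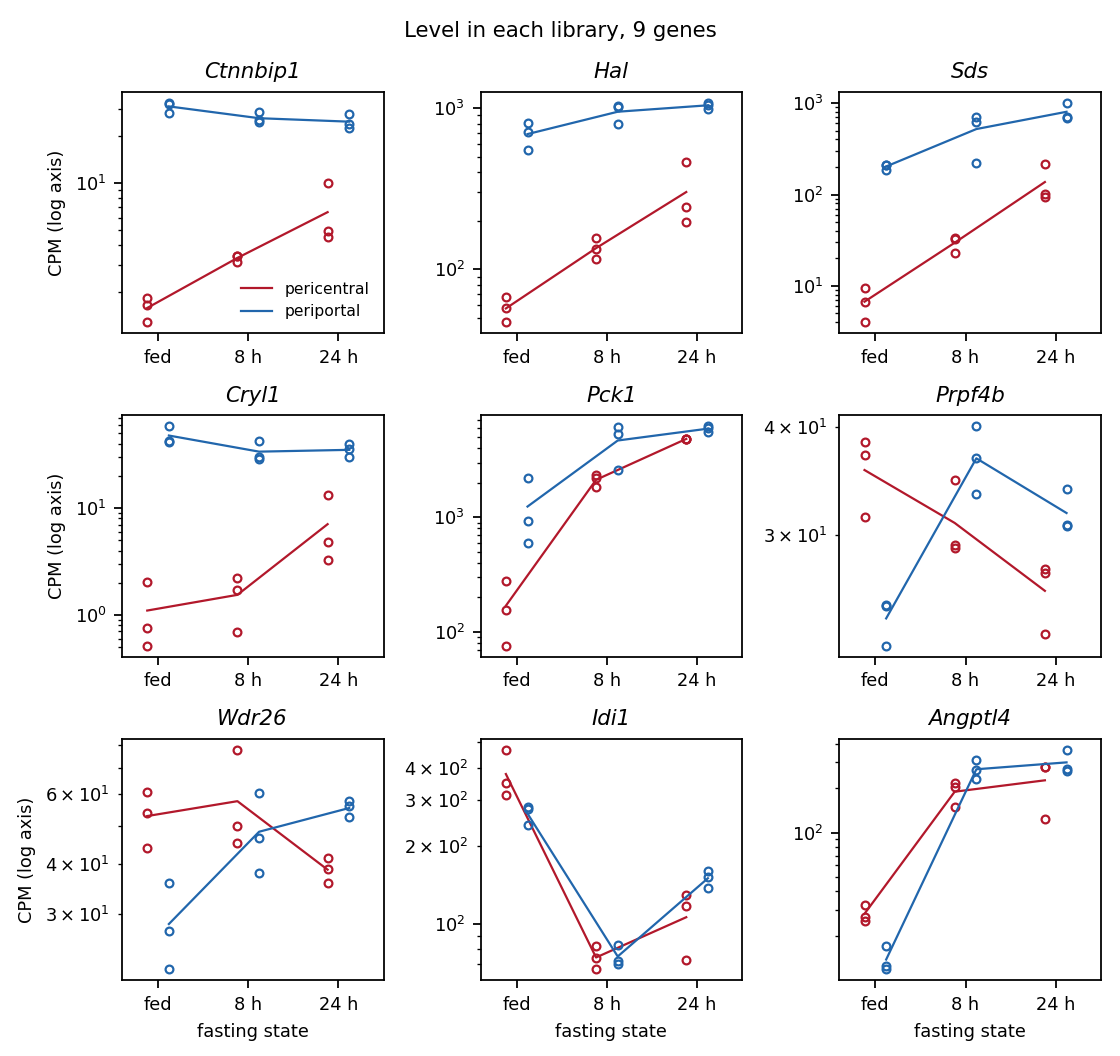
Level of 9 genes in each library (circles, CPM on a log axis) in fed, 8 h and 24 h mice, with lines through the group means. The pericentral values of Ctnnbip1, Hal, Sds and Pck1 move toward the periportal ones from fed to 24 h, and those of Prpf4b and Wdr26 cross them.

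Among the 14 genes of gluconeogenesis and glucose output, the process named in the study's title, Pck1 had the largest zone difference in size. It was at 75.7, 276 and 157 CPM in pericentral fed and 4790, 4840 and 4820 CPM in pericentral 24 h libraries. The periportal values were 593, 927 and 2200 CPM when fed and 6030, 5500 and 6220 CPM at 24 h. The 3 pericentral 24 h libraries were nearly equal, whereas the periportal fed ones were spread widely. The zone difference was -2.57 (SE 0.66, 95% interval -3.98 to -1.16), with an edgeR p of 0.00151 and an adjusted p of 0.345, and it was -1.87 without periportal fed replicate 3. In CPM the gain was 4650 on the pericentral and 4678 on the periportal side, a difference of 27.6 with an SE of 537. The ratio of the zones thus narrowed from fed to 24 h while the amounts added differed by less than their error.

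The other core enzymes gave smaller values with intervals that included 0. For G6pc, which releases free glucose, the zone difference was -0.68 (SE 0.48, interval -1.71 to 0.35), for Pcx, pyruvate carboxylase, -0.67 (SE 0.48, interval -1.69 to 0.35), and for Fbp1 -0.15 (SE 0.17, interval -0.51 to 0.20). Without periportal fed replicate 3, which was at 548 CPM of G6pc where its partners had 264 and 316, the values were -0.30 for G6pc and -0.42 for Pcx. Without pericentral 24 h replicate 2, Fbp1 was at -0.068. For Fbp1 the interval leaves no room for a difference of 2-fold, and for G6pc and Pcx it does. Over the 14 genes of this list the median was -0.07, with 9 below 0, and Pck1 was the 1 member at an unadjusted p under 0.05. Over 16 regulators it was -0.05, with 10 below 0. Foxo1 and Ppargc1a, a transcription factor and a coactivator of this programme, rose by 1.27 and 1.68 in pericentral and by 1.37 and 1.68 in periportal cells on the log2 scale, and their zone differences were 0.10 and 0.00.

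Enzymes of amino acid use showed the same form as Pck1 in a few members. Sds, serine dehydratase, was at 3.98, 6.69 and 9.50 CPM in pericentral fed and 101, 215 and 94.8 CPM in pericentral 24 h libraries. On the periportal side it was at 187, 211 and 210 CPM when fed and 713, 1010 and 689 CPM at 24 h. It rose in both zones, by 4.35 (edgeR adjusted p 3.3e-05) and 1.99 (adjusted p 0.00456), and the zone difference was -2.36 (SE 0.59, adjusted p 0.345), or -1.85 without both libraries. The gain in CPM was larger on the periportal side, by 472 with an SE of 111, so the sign depends on the scale. Gls2, the liver glutaminase, averaged 105 ± 17.8 CPM in fed and 231 ± 76.8 CPM in 24 h pericentral libraries, against 536 ± 33.6 and 584 ± 21.1 CPM on the periportal side (SD, n = 3 each), a zone difference of -1.02 (SE 0.27, edgeR adjusted p 0.345). Pericentral 24 h replicate 2, at 320 CPM, was the highest of its group, and the value was -0.71 without it and -0.67 without both libraries. Over the 21 genes of amino acid breakdown the median was -0.06, with 12 below 0 and 4 at an unadjusted p under 0.05, all of those below 0: Hal, Uroc1, Sds and Gldc. Of all genes, 4.38% were below 0 at that p. The sign of the list's median was not stable, at 0.06 without both libraries. Among 11 genes of the urea cycle and ammonia supply the median was -0.13 (-0.055 without both libraries), and Arg1, Asl and Cps1 were at -0.18, -0.02 and -0.19.

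Among the lists with more than 10 members tested, cholesterol synthesis and uptake lay most evenly to 1 side. From fed to 24 h, 20 of its 21 genes fell in pericentral cells (11.1% of all genes fell there), and 12 fell in periportal cells (10% of all genes). The median change was -1.64 in pericentral and -0.83 in periportal cells. The median zone difference was 0.76, with 20 of 21 above 0 and 9 at an unadjusted p under 0.05, all above 0, where all genes tested had a median of -0.01 and 3.33% in that class. No member was called, the smallest edgeR adjusted p being 0.345. The members share regulators and libraries, so their number is not a number of independent observations.

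Along the pathway the early and late steps took part. Idi1, which makes dimethylallyl diphosphate, was at 315, 349 and 469 CPM in pericentral fed and 72.6, 129 and 117 CPM in pericentral 24 h libraries. Its periportal values were 240, 277 and 281 CPM when fed and 160, 152 and 138 CPM at 24 h. The fed and 24 h libraries did not overlap in either zone, the zone difference was 1.0 (SE 0.25, 95% interval 0.47 to 1.54), and it was 1.21 without both libraries that stood apart. Hsd17b7, a reductase of a late step, was at 139, 99.3 and 136 CPM in pericentral fed and 76.6, 74.2 and 89.0 CPM in pericentral 24 h libraries, against 83.8, 73.1 and 80.2 and then 81.6, 82.9 and 93.5 CPM on the periportal side. It fell in pericentral cells by 0.64 on the log2 scale (edgeR adjusted p 0.0057), and the periportal 0.12 did not pass the test (adjusted p 0.628).

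Other members followed in graded sizes. Mvk, mevalonate kinase, had 28.5 ± 11.7 and 13.0 ± 0.330 CPM in pericentral fed and 24 h libraries and 17.5 ± 1.55 and 16.5 ± 2.91 CPM in periportal ones (SD, n = 3 each), a zone difference of 1.03 (SE 0.36). Msmo1, a sterol demethylation enzyme, had 336 ± 122 and 112 ± 18.2 against 150 ± 25.3 and 96.6 ± 12.2 CPM (SD, n = 3 each), a zone difference of 0.96 (SE 0.32). Insig1, which holds SREBP in the endoplasmic reticulum, fell in both zones, with a zone difference of 0.19 (interval -0.59 to 0.96), or 0.029 without both libraries that stood apart. Sc5d, a desaturase of the last steps, also fell in both, with a zone difference of 0.02 (interval -0.48 to 0.52). So the list was not uniform, and the zone differences reached 1.11 (SE 0.49) for Fdps, farnesyl diphosphate synthase.

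The fed levels are given here as a description only. The zone difference equals the periportal minus pericentral value at 24 h minus that in fed mice, from the same libraries. A zone difference above 0 therefore favours a fed level higher in pericentral cells. The fed counts are thus no separate evidence, and the part of the fed level in the result was not tested. When fed, 17 of the 21 were higher in pericentral cells, with a median periportal minus pericentral value of -0.51, and at 24 h the median was 0.11. Leaving out both libraries that stood apart gave a median zone difference of 0.62, with 19 of 21 above 0. The library that moved it most was pericentral fed replicate 3, without which the median was 0.41. In that library Idi1 was the highest of its group, as listed above. Its part in the result was not tested.

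**Figure D3:**
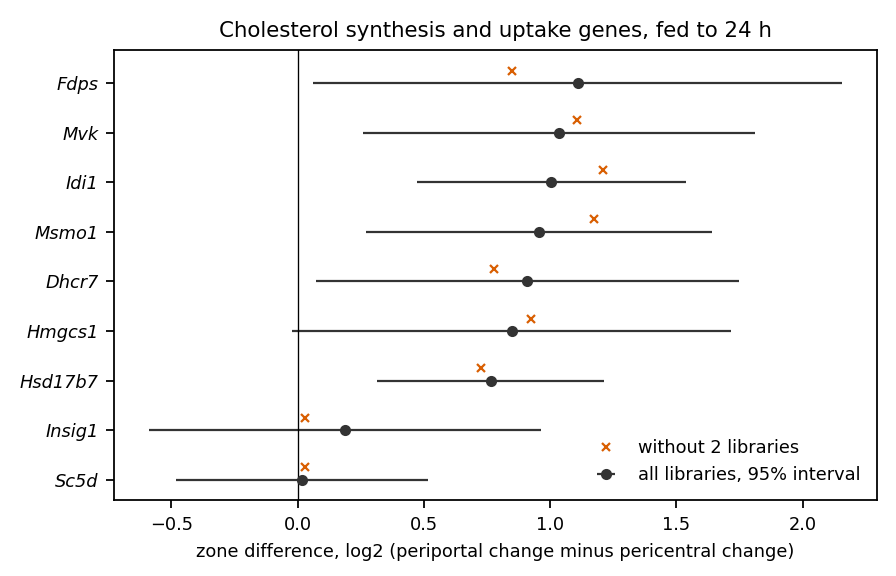
Zone difference of 9 of the 21 genes of cholesterol synthesis and uptake, those named in the text (points, log2, with 95% intervals), and the same without pericentral 24 h replicate 2 and periportal fed replicate 3 (crosses). All 9 points lie above 0, and 3 intervals, those of Hmgcs1, Insig1 and Sc5d, include 0.

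The upstream windows shown above can be read against all others. RefSeq windows matched 14 of the 21 cholesterol genes, and all 14 held a CCAAT box in the 250 bases before the start, on either strand. Of the 9621 tested genes with a window, 41% held it, as did 6 of the 7 matched genes ranked below 0 and 5 of the 8 matched genes ranked above 0. The sterol regulatory element was in 1 of the 14, Hmgcs1 (1.29% of tested genes), and the E-box in 4, Dhcr7, Hsd17b7, Insig1 and Sc5d (9.64%). The CTTTGAT motif was in Hal and Steap2 among the 7 matched genes of the group ranked below 0, and in 2.89% of tested genes. The core TGACGT was in 11.4% of tested genes and is part of the full element TGACGTCA (2.98%). In all 8 motifs were searched, the others being GTAAACA of FOXO factors and CAAAGTCCA of HNF4A. They were chosen after the values were seen, and the matches have no test.

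Fatty acid synthesis genes fell steeply in both zones and their zone differences leaned the same way as the cholesterol genes without any passing p under 0.05 before adjustment. Of 15 lipogenesis genes, 12 fell in pericentral cells (11.1% of all genes) and 10 in periportal cells (10% of all genes). The median zone difference was 0.36, with 13 above 0, and it was 0.24 without periportal fed replicate 3 and 0.22 without both libraries that stood apart. Fasn was at 1730, 864 and 1210 CPM in pericentral fed and 18.6, 23.2 and 27.2 CPM in pericentral 24 h libraries, against 1460, 1530 and 452 and then 33.6, 58.9 and 39.5 CPM on the periportal side. Its periportal minus pericentral value at 24 h was 0.94 and did not pass the test (edgeR adjusted p 0.232). The zone difference was 1.08 (SE 0.54, edgeR p 0.0649), or 0.71 without both libraries. Srebf1, the factor that drives these genes, was on the other side of 0, at -0.77, or -0.44 without both libraries. Among 14 genes of glycolysis and fructose use the median was 0.22, with 12 above 0. Of these, 3 had an unadjusted p under 0.05 (3.33% of all genes were above 0 at that p). Tkfc, which phosphorylates glyceraldehyde from fructose, fell by 2.68 in pericentral and 1.85 in periportal cells on the log2 scale, a zone difference of 0.83 (SE 0.29). Gckr, which inhibits glucokinase, had a fitted value that rests on levels of at most 2.09 CPM, with all 3 periportal fed libraries listed at 0, and is not read further.

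Genes of fatty acid oxidation and ketogenesis rose by close amounts. Of 23 genes, 16 rose in pericentral cells (10.8% of all genes) and 15 in periportal ones (9.59%), and the median zone difference was -0.17, or 0.02 without both libraries that stood apart. Cpt1a, the gate for fatty acids into mitochondria, rose by 1.41 in pericentral and 1.21 in periportal cells, a zone difference of -0.21 (interval -0.64 to 0.23), or -0.071 without both libraries. For Cpt1a the interval excludes a difference of 2-fold. Among 12 lipid droplet genes the median was 0.53 with 10 above 0, where Angptl4 and Hilpda had an unadjusted p under 0.05.

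Endoplasmic reticulum chaperones fell in both zones, 15 of 16 in pericentral cells (11.1% of all genes) and 14 in periportal ones (10%), with a median zone difference of 0.10 and 13 of 16 intervals within a factor of 2. Hspa5, the main chaperone of the compartment, fell by 1.82 and 1.97. Among 13 genes of ATF4 and amino acid stress the median was 0.12 (0.024 without both libraries). Chac1 and Trib3 rose in pericentral cells by 1.48 and 1.35 on the log2 scale, to 24 h means of 3.12 and 5.08 CPM, with zone differences of -1.63 (SE 0.70) and -0.97 (SE 0.41). The medians of insulin signalling, glycogen and circadian clock genes were 0.04, -0.09 and -0.18. In the glycogen list Phkb, a subunit of phosphorylase kinase, had 26.8, 27.8 and 27.0 CPM in pericentral fed and 20.9, 17.2 and 16.5 CPM in pericentral 24 h libraries, and 20.6, 18.7 and 17.0 against 17.9, 17.4 and 19.2 CPM on the periportal side. Its zone difference was 0.53 (SE 0.15, edgeR p 0.00255, adjusted p 0.345).

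**Figure D4:**
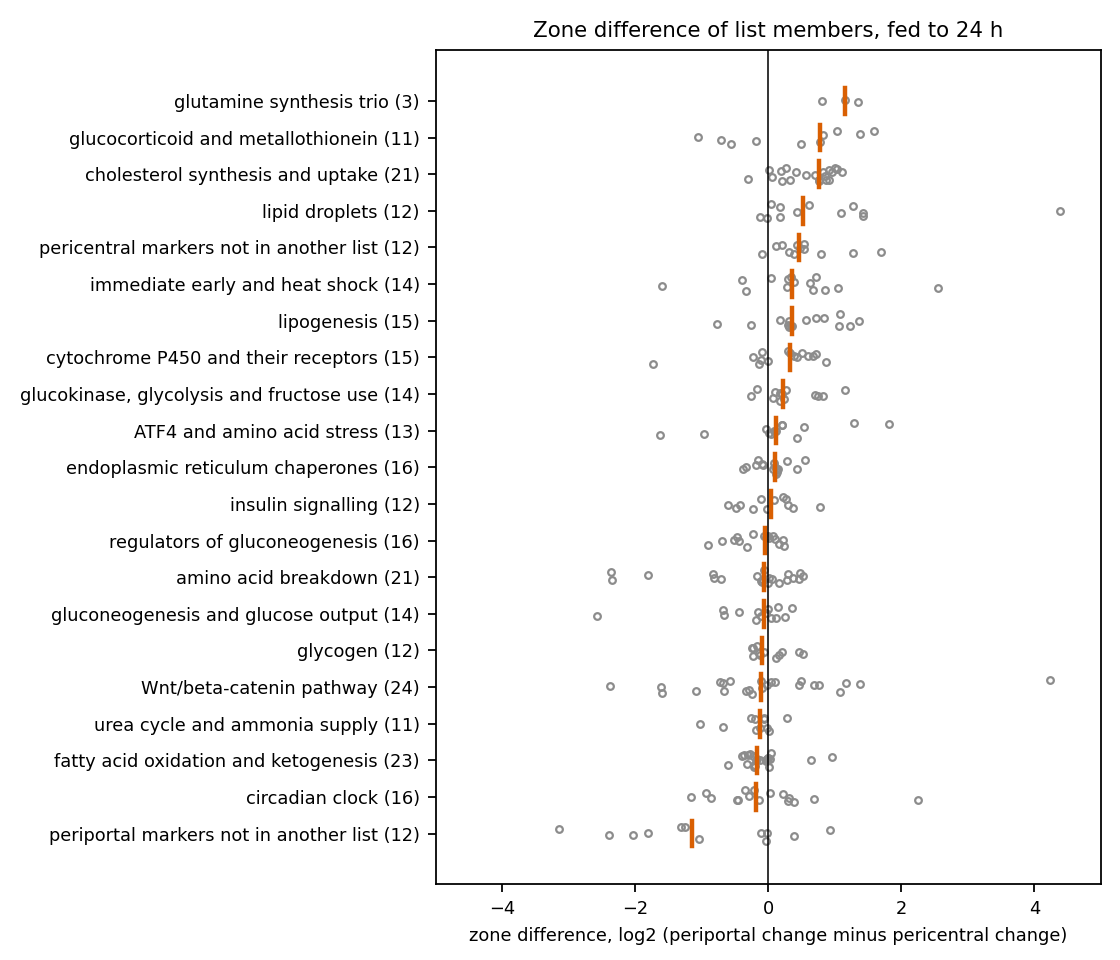
Zone difference of each tested member (grey circles) of 21 gene lists, ordered by the median (orange bars), with the number of members in brackets and 2 members beyond the axis. Medians run from -1.15 for periportal markers to 1.15 for the glutamine synthesis trio. The trio was at 0.66 without pericentral 24 h replicate 2 and 0.39 without both libraries that stood apart. Glucocorticoid and metallothionein genes were at 0.77 (0.20 without both libraries) and cholesterol synthesis and uptake at 0.76 (0.62 without both).

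In the list of the Wnt/beta-catenin pathway 24 genes were tested, with a median of -0.10. Ctnnbip1 was the 1 called member, and 5 members had an unadjusted p under 0.05, all below 0 (4.38% of all genes). Besides Ctnnbip1 these were Tcf7l1, a TCF factor that acts mainly as a repressor, Tcf7l2, Lrp6, a Wnt co-receptor, and Dkk3. Tcf7l1 was at 0.864, 0.315 and 1.32 CPM in pericentral fed and 2.11, 2.79 and 1.24 CPM in pericentral 24 h libraries, which overlapped, against 7.43 ± 0.621 and 5.98 ± 0.957 CPM on the periportal side (SD, n = 3 each). Its pericentral rise was 1.30 (SE 0.36, edgeR adjusted p 0.0152), and the zone difference was -1.61 (SE 0.47, adjusted p 0.345).

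Targets of the pathway lay on both sides of 0, and none had an unadjusted p under 0.05. The feedback regulators Nkd1, Znrf3 and Rnf43 were at -0.66, -0.29 and 0.04. Lgr5, a receptor that amplifies Wnt signals and is itself a target, fell in pericentral cells from 7.20 ± 1.29 to 3.01 ± 1.65 CPM (SD, n = 3), by 1.26 on the log2 scale (edgeR adjusted p 0.0137), and its zone difference was 1.39 (SE 0.66, interval -0.02 to 2.79). Axin2, the classic feedback target, had a zone difference of 0.76 (SE 0.74, interval -0.81 to 2.33) and 0.25 without both libraries. The corresponding value of Lgr5 was 0.70. Ctnnb1, beta-catenin itself, fell by 0.31 and 0.40, a zone difference of -0.10.

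Zone differences of the zone markers lay mostly on the side of a smaller gap between zones, and their size depended on the libraries that stood apart. For 12 periportal markers the median zone difference was -1.15, with 10 below 0. Of these, 7 had an unadjusted p under 0.05 (4.38% of all genes were below 0 at that p). For 12 pericentral markers the median was 0.46, with 11 above 0 and none under that p (3.33% of all genes above 0). Without both libraries these medians were -0.73 and -0.06. The lists were chosen with earlier results of these data known, so the counts are a description and no support. Fgfr2, a growth factor receptor, showed the pattern: 0.899, 1.34 and 1.48 CPM in pericentral fed and 2.38, 9.41 and 4.35 CPM in pericentral 24 h libraries, against 40.8 ± 6.68 and 43.9 ± 12.1 CPM (SD, n = 3 each) on the periportal side. Its zone difference was -2.03 (SE 0.55), and -1.32 without pericentral 24 h replicate 2. Cdh1, E-cadherin, differed from it in form. It fell in periportal cells from 121 ± 22.6 to 49.0 ± 14.5 CPM and was at 10.5 ± 4.21 and 10.5 ± 2.58 CPM in pericentral ones (SD, n = 3 each), a zone difference of -1.31 (SE 0.40), or -1.10 without both libraries.

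A wider view used genes chosen on the 6 libraries at 8 h, which are not part of the contrast and were taken at clock hour 21. In a fit of those libraries 237 genes were higher in periportal and 213 in pericentral cells. In a fit of the 12 other libraries, 182 of the 237 (76.8%) had a zone difference below 0, where 50.8% of all genes did, and the median was -0.29. Their median periportal excess went from 1.06 in fed to 0.78 in 24 h mice. Of the 213, 153 lay above 0, with a median of 0.25, and their median zone contrast was -1.35 in fed and -1.30 in 24 h mice. Without both libraries the portal median was -0.24 and the central one 0.06, with 123 of the 213 central genes above 0.

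The same genes give a score for each library, the median log2 CPM of the portal genes minus that of the central genes. It was -0.72, -0.61 and -0.48 in pericentral fed and -0.43, 0.27 and -0.22 in pericentral 24 h libraries. In periportal libraries it was 2.09, 1.72 and 2.30 when fed and 1.59, 1.70 and 2.02 at 24 h. Every pericentral 24 h library was above every fed one, and replicate 2 was the most portal of them. The periportal libraries overlapped between the states. Markers of other cells also differed between these groups. The summed Kupffer cell and leukocyte markers were 1.97 to 2.80 CPM in pericentral fed and 3.99 to 8.86 CPM in pericentral 24 h libraries, against 8.01 to 11.9 and 3.47 to 32.0 CPM in periportal ones. Of 10 such markers tested, 8 had a zone difference below 0 and 0 an unadjusted p under 0.05. Stellate cell markers, 4 of 10 tested and all 4 below 0, summed to 1.69 to 2.99 and 2.66 to 6.47 CPM in pericentral fed and 24 h libraries, against 5.57 to 8.30 and 3.13 to 12.9 CPM. Erythroid markers, 5 of 5 tested and all below 0, summed to 45.6 to 55.1 and 38.1 to 51.8 CPM, against 58.8 to 81.7 and 32.0 to 92.1 CPM. In pericentral libraries most of that sum was Alas2, with means of 49.5 CPM when fed and 41.05 CPM at 24 h. There the globin Hba-a1 went from a mean of 0.0389 to 0.864 CPM. The median pericentral change of the 5 was 3.22 on the log2 scale, and none passed the edgeR test there. Of the cholangiocyte markers 3 of 4 tested lay above 0, with sums of 28.1 to 34.5 and 21.6 to 25.8 CPM against 41.1 to 65.3 and 34.7 to 55.3 CPM, and Epcam was at 0 in every library. The part of these cells in the results was not tested.

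**Figure D5:**
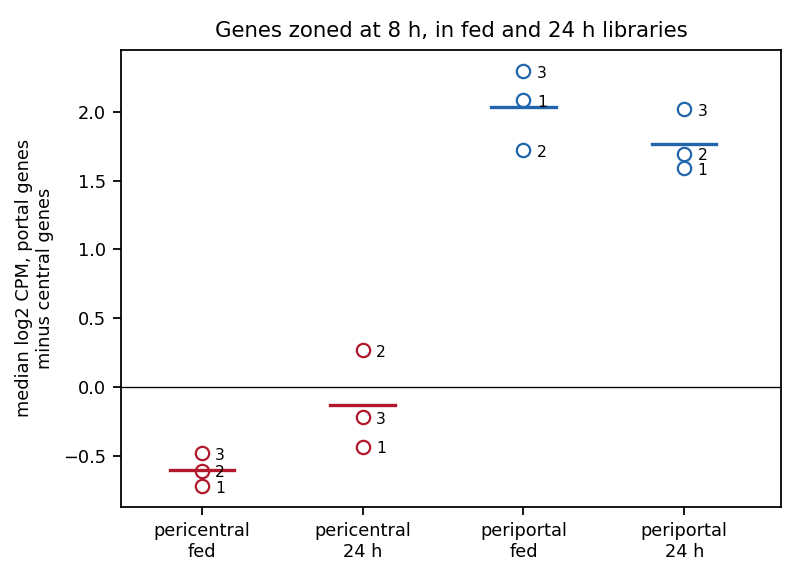
Score of each library (circles with replicate numbers, bars for group means) as the median log2 CPM of genes higher in periportal cells at 8 h minus that of genes higher in pericentral cells at 8 h. The pericentral 24 h libraries, at -0.43 to 0.27, lie above the pericentral fed ones, at -0.72 to -0.48, and the periportal states overlap.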

How the data were processed

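The values deposited by the authors are unnormalised estimated counts, 1 per gene and library, of which 67.5% to 70.5% in a library were whole within 1e-09. The submitters' processing notes name kallisto 0.46.0 and mm10; the annotation and the use of strand are not given in the sources used here, so values of near-identical, overlapping or antisense genes are uncertain. The 28030 Ensembl identifiers gave 27566 symbols. Estimated counts were rounded to units of 1, filtered with filterByExpr on 6 groups, scaled by TMM and fitted with edgeR 4.0.16 (robust quasi-likelihood F test, R 4.3.3) over all 18 libraries, with 1 coefficient a group. P-values were adjusted by Benjamini-Hochberg over the 12477 genes tested, and a gene was called under 0.05. The SE is the size of the log2 value over the square root of F. Genes zoned at 8 h came from a fit of the 8 h libraries alone. The test was tried on simulated data.

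Named were the genes called, the 12 with the smallest p in each direction (at least 10 CPM in 1 of the 4 groups, no predicted name), those with opposite changes, 4 gluconeogenic genes, the 2 smallest p of each list, and zone markers; other list members are named as examples. The comparison, the lists and the rule were chosen with earlier results of these data known. Alternatives were DESeq2 1.42.0, limma 3.58.1 voom with and without quality weights, other scaling and filters, the 4 groups alone, replicate blocks, and leaving out libraries. Coordinates are GENCODE M21 (GRCm38), and upstream sequences are from RefSeq (GRCm38.p6). Some members of the lists are not reported here by name.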

Additional observations from a re-analysis of the deposited data

Results flagged for a closer look

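The change from fed to 24 h differed between the zones by the test of the difference itself for Ctnnbip1, with a log2 zone difference of -2.38 (edgeR adjusted p 0.0159), periportal lower than pericentral. The call was lost with the replicate number as a block (0.0631) or as a block within each state (0.144). In all 3 pericentral 24 h libraries Ctnnbip1 was above the fed ones, and in all 3 periportal 24 h libraries below them. By the score of genes zoned at 8 h, the pericentral 24 h libraries were also more portal (-0.43, 0.27 and -0.22) than the fed ones (-0.72, -0.61 and -0.48). The part of the mix of zones in the Ctnnbip1 result was not tested. The edgeR test of the zone difference also marked Scg2, with a fitted value of -7.05 (adjusted p 0.0473). That fitted size depends on pericentral fed libraries listed at 0 and is not a fold that can be read, and no library exceeded 0.791 CPM.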

How the results depend on the processing

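The number of genes called for the zone difference was 2. It was 2 with DESeq2 size factors, without a filter and without the 20 most abundant genes in the scaling, 1 with a filter at a mean of 1 CPM, 38 by DESeq2, 0 by limma-voom and 0 with quality weights, which left 1009 and 1044 genes at an unadjusted p under 0.05. Leaving out single libraries gave 0 to 4. With only the 4 groups it was 2, but these were Etnppl and Id3. It was 4 without both libraries that stood apart and 6 with the 4 groups and both left out, a setting added after the data were seen. With the replicate number as a block it was 0, and 0 with the block within each state (1014 and 1062 genes at an unadjusted p under 0.05). Deviations from the group means of same-numbered libraries of 1 state correlated with r from -0.0112 to 0.165, 3 of 9 above 0.1. Of 18 libraries, 9 matched best with their own number, each having 3 libraries of the other zone to match. The pairs above 0.1 were the 3 at 24 h (0.121, 0.165 and 0.147). Other-numbered pairs at 24 h were all below 0, but deviations within a group of 3 sum to 0, so these signs are no separate evidence. The fed pairs lay between -0.0112 and 0.00674. The numbers were therefore not taken as pairs for the contrast as a whole. Among named genes, Cyp2e1 (0.39) was -0.25 without periportal 24 h replicate 1, -0.075 without both libraries and -0.076 with the 4 groups and both left out, and single libraries moved it between -0.25 and 1.26. Cyp1a2 (-0.10) was 0.24 with the replicate block within each state, 0.20 by limma-voom, 0.089 with quality weights, and -0.60 to 0.89 without single libraries (0.89 without periportal fed replicate 2, 0.14, 0.046 and 0.15 without pericentral 24 h replicate 1 and periportal 24 h replicates 2 and 3). The median of the genes portal at 8 h was -0.60 among those at least 2-fold zoned. The lipogenesis median (0.36) was 0.72 by limma-voom and 0.69 and 0.78 without pericentral fed and periportal fed replicate 2, 0.24 without periportal fed replicate 3 and 0.22 without both libraries. Over these settings, 2265 values of named genes kept their side and direction, 33 lost a call, 23 gained a call and the 10 above changed sign. The cause of these moves was not tested. With 3 libraries a group the median half-width of the 95% interval was 0.54. That is no limit of detection for the adjusted test: 1104 genes were past 1 in size and 2 were called. Zone differences well above 0.54 could thus go uncalled.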
